A study of Mus musculus with 18 samples.

Results

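Cultures of mouse spinal motoneurons that had received an empty lentiviral vector were compared with cultures that had received no virus, in RNA taken from the cell bodies and dendrites. The comparison used 6 of the 18 arrays of the series, chosen by their labels: 3 labelled somatodendritic wild-type and 3 labelled somatodendritic empty vector. Motoneurons came from E12.5 mouse embryos whose dorsal root ganglia and meninges had been taken away. They were panned on p75, a neurotrophin receptor, and kept for 7 days in microfluidic chambers, which keep axons apart from cell bodies. All groups received BDNF at 20 ng/ml in the axonal compartment, CNTF at 5 ng/ml on both sides and 2% horse serum, and all RNA went through 2 rounds of linear amplification before hybridisation to Affymetrix mouse genome arrays. Another 3 somatodendritic arrays came from cultures given a lentivirus with an shRNA against Smn, whose human form is deficient in spinal muscular atrophy. That group is used here only for the estimate of spread and for levels set beside those of the empty vector arrays. The labels name no promoter, reporter or dose for the vector, and whether replicate arrays stand for independent cultures is not stated, so p-values measure the spread between arrays, which may be technical.

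A lentivirus copies its RNA genome into DNA and inserts that DNA into the genome of its host cell, also in cells that do not divide, and for this reason it is used to bring genes into neurons. Cells can sense foreign nucleic acid through Toll-like and RIG-I-like receptors, which switch on type I interferon and the genes that interferon induces. Microglia are the macrophages of the central nervous system. They derive from the yolk sac, enter the neural tube of the embryo, depend on the growth factor receptor Csf1r, and take up debris, which they break down in lysosomes.

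Each gene is represented by 1 probe set, the one with the highest mean over the 18 arrays, which gave 18191 genes. Values are the deposited log2 expression values, so a difference of 1 is a 2-fold change. The background level of an array was set from 148 probe sets of genes from other tissues, such as olfactory receptors, at their 95th percentile, and it lay between 6.21 and 6.52 on the 9 somatodendritic arrays. A gene counts as above background where all 3 arrays of the group were above their own level, which held in both groups for 52.6% of genes and in neither for 44.2%. A fold against a group that was not above background is a lower bound, given as "at least", and no fold is given where neither group was above background. In RNA from all cells of a compartment, fewer cells of a type and less RNA per cell cannot be told apart.

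The wild-type arrays had 10017 to 10560 genes above the background level and the empty vector arrays 10146 to 10770. Arrays of the same group correlated at 0.994 to 0.995 in wild-type and 0.995 to 0.997 in empty vector cultures. Wild-type replicate 3 stood nearer to the empty vector arrays, with r from 0.994 to 0.995, than wild-type replicates 1 and 2 did, with r from 0.988 to 0.993. Gapdh read higher at its 3′ than at its 5′ end, as amplified RNA does, by amounts that ran from 3.11 to 3.61 in wild-type and from 3.53 to 3.68 in empty vector arrays, which overlap. The hybridisation spikes BioC and BioD had a mean of 10.94 to 11.06 on wild-type and 10.75 to 10.91 on empty vector arrays, which do not overlap, and their part in the results was not tested. Smn1 lay between 4.86 and 5.38 in both groups and between 4.99 and 5.20 in the knockdown group, below the background level everywhere, so its probe set checks none of the labels.

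The labelled cell type was checked against its markers. Of 17 genes of cholinergic motoneurons, 5 were above background in both groups: Foxp1, Ret, Gfra1, the intermediate filament gene Prph, and Ngfr, which encodes the p75 receptor used for panning. Chat, the enzyme that makes acetylcholine, was not above background, at 5.83, 5.83 and 5.80 in wild-type and 5.55, 5.76 and 5.78 in empty vector arrays. The same held for the vesicular acetylcholine transporter Slc18a3, the choline transporter Slc5a7 and the motoneuron transcription factors Isl1 and Mnx1. Of 14 genes of other spinal neurons, 8 were above background in both groups and 6 in neither. The higher ones included, with means in wild-type and empty vector arrays of 12.26 and 12.28 for the GABA-synthesising enzyme Gad1, 12.09 and 12.21 for the vesicular glutamate transporter Slc17a6, and 11.21 and 11.03 for the glycine transporter Slc6a5. None of the 17 motoneuron genes and none of these 14 passed the test between the groups, with median differences of 0.00 and 0.03.

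In the comparison itself, 364 of 18191 genes (2.00%) passed an adjusted p of 0.05 by limma with Benjamini-Hochberg adjustment. Of these, 276 (1.52%) were lower and 88 (0.484%) higher in the empty vector cultures. The falls were also the larger changes: 99 genes (0.544%) were lower by at least 2-fold and 2 (0.0110%), Fos and Clip3, were higher by as much. In all 364 genes the 3 empty vector arrays lay entirely to one side of the 3 wild-type arrays, as they did in 10.8% of all genes downwards and 8.05% upwards. Over all genes the median difference was -0.02. The number of calls moved with single arrays. Without wild-type replicate 3, 611 genes were higher and 797 lower, and without any other array there were 16 to 56 higher and 179 to 230 lower. Wild-type replicates 1 and 2 and empty vector replicates 1 and 3 each brought the total down to between 200 and 221 when left out.

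**Figure D1:**
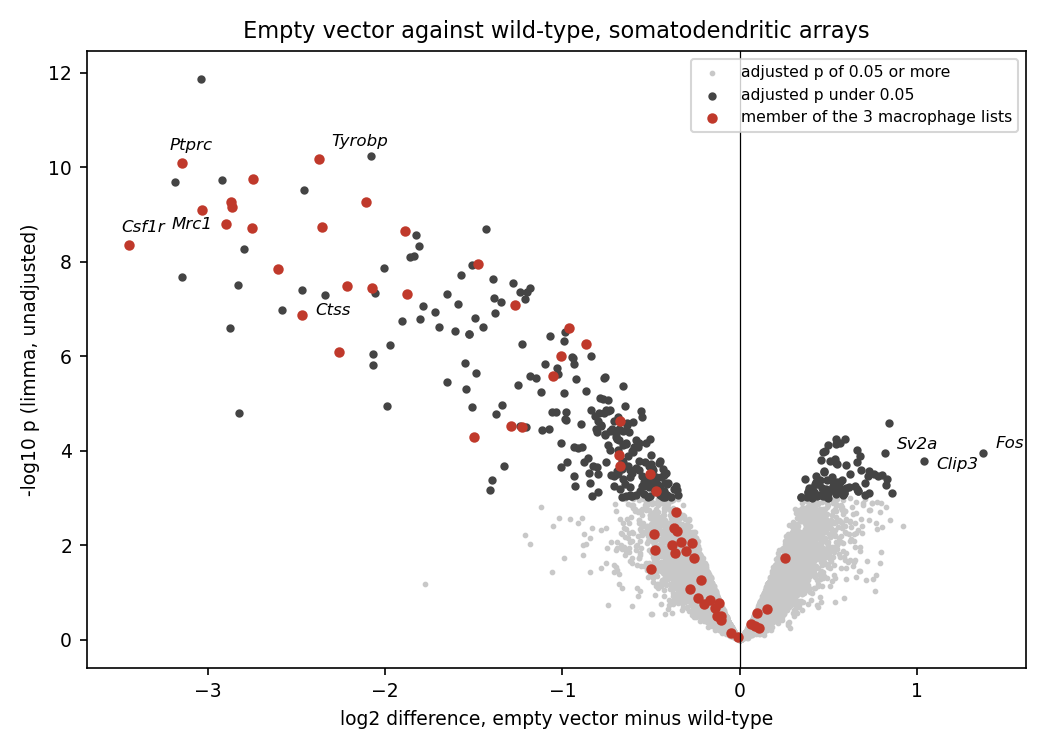
Log2 difference, empty vector minus wild-type, against the negative log10 of the unadjusted limma p for 18191 genes on somatodendritic arrays (3 per group). Members of the 3 macrophage lists, in red, are 25 of the 99 genes that were lower by at least 2-fold and reach -3.44, whereas the right arm ends at 1.37 with Fos.

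Genes of macrophages had the lowest median difference of the 37 gene lists examined. Of 35 measured genes of a core list of microglia and macrophages, 20 were lower in the empty vector cultures and none higher, beside 1.52% and 0.484% of all genes, and the median difference was -1.01. Counted with a list of the resident microglia signature and a list of macrophages of the brain's borders and the yolk sac, 32 of 62 measured genes were lower, 25 of them by at least 2-fold. The mean over the 35 core genes was 7.14, 7.13 and 7.04 on the wild-type arrays and 5.96, 5.76 and 5.66 on the empty vector arrays. The lowest wild-type array thus lay above the highest empty vector array. In wild-type cultures 19 of the 35 genes were above background and in empty vector cultures 8.

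Csf1r, the receptor on which microglia depend for survival, had the largest fall. Its log2 values were 10.80, 10.70 and 9.97 in wild-type and 7.53, 6.71 and 6.91 in empty vector arrays, a difference of -3.44 (SE 0.23, limma adjusted p = 4.2e-06), or 10.9-fold. All 3 empty vector values lay above the background level, so the transcript was lower there but still detected. The size depended on the probe set: of 2 further probe sets of Csf1r, 1 fell by 1.5 on the log2 scale and the other differed by -0.21 and did not pass, and the mean of all 3 fell by 1.72. The ligands of this receptor did not pass the test, with differences of -0.16 for Csf1 and -0.04 for Il34.

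Signalling genes of the same cells fell with it. Tyrobp, the adaptor through which many receptors of microglia signal, had values of 9.03, 8.97 and 8.92 against 6.85, 6.47 and 6.49, a 5.18-fold fall (limma adjusted p = 3.6e-07). Ptprc, the leukocyte phosphatase CD45, had 9.59, 9.89 and 9.61 against 6.86, 6.54 and 6.26, at least 8.55-fold lower. Plek, a substrate of protein kinase C in blood cells, was 6.70-fold lower, and Laptm5, a lysosomal membrane protein of leukocytes, had 10.62, 10.79 and 10.44 against 8.05, 7.87 and 7.33, which is 7.31-fold lower. The groups did not overlap in any of these genes, as in every called gene. The sizes depended on the probe set. A second probe set of Ptprc, not above background, differed by 0.08 and did not pass. Of 4 further probe sets of Laptm5, 1, at 7.60 in wild-type and 7.79 in empty vector arrays, differed by 0.20 and did not pass. The others differed by -0.57, which passed, and by -0.03 and -0.34, which did not. The mean of all Laptm5 probe sets fell by 0.72. Further probe sets of Plek, not above background, fell by 0.84 and 0.92.

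Further falls covered phagocytosis, adhesion and the cell surface. Mpeg1, which forms pores in engulfed microbes, had values of 10.54, 10.68 and 10.56 in wild-type against 7.95, 7.65 and 7.10 in empty vector arrays, an 8.17-fold fall. Lcp1, an actin-bundling protein of leukocytes, was at least 2.69-fold lower, the tetraspanin Cd53 at least 4.18-fold, the Fc receptor Fcgr3 at least 3.16-fold, Adgre1, known as the antigen F4/80, at least 3.85-fold, and the integrin subunit Itgb2 at least 2.56-fold. These bounds rest on empty vector values near or under the background level. A second probe set of Lcp1, not above background, fell by 0.64 on the log2 scale. Lyz2, lysozyme of myeloid cells, was 2.34-fold lower and still 7.59 to 8.35 in the empty vector arrays.

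**Figure D2:**
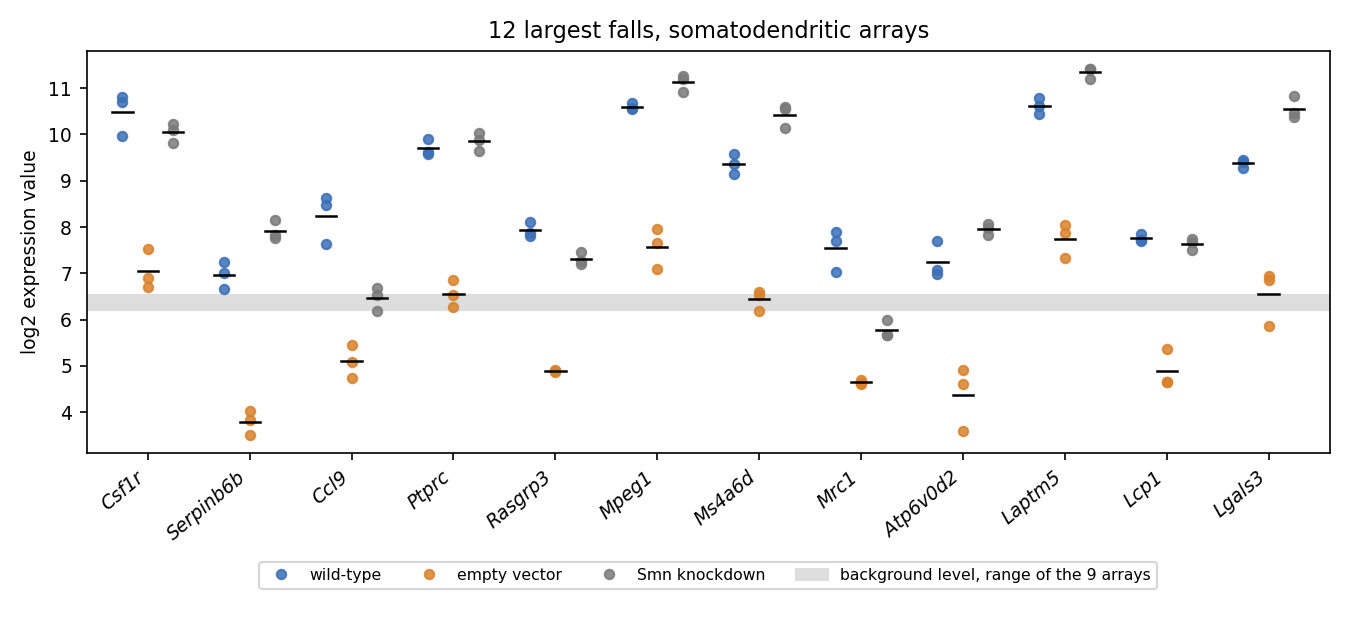
Log2 expression values of the 12 genes with the largest falls on the 9 somatodendritic arrays. Points are arrays (3 per group, coloured by group), black bars group means, and the grey band the range of the background level. The genes were chosen among those without overlap, so every empty vector array lies below every wild-type array by that rule.

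Not every macrophage gene passed. Of the 15 core members that did not, Trem2, a receptor for lipids on microglia, had values of 6.69, 6.92 and 6.94 in wild-type against 6.52, 6.53 and 6.43 in empty vector arrays, a difference of -0.35 (limma adjusted p = 0.11). The transcription factor Spi1, known as PU.1, differed by -0.22, and the widely used markers Aif1 and Itgam by -0.48 and -0.36, with neither group above background. In the resident microglia signature, 5 of 14 measured genes were lower, beside 1.52% of all genes, and 4 were above background in wild-type cultures. Fcrls, at 9.04, 8.10 and 8.64 against 6.89, 6.04 and 6.07, was at least 4.11-fold lower, and the fractalkine receptor Cx3cr1 fell by 0.97 on the log2 scale. The purinergic receptor P2ry12 and Tmem119, which mark mature microglia, were below background in both groups, with differences of -0.38 and 0.07.

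Of 15 genes of border and yolk sac macrophages, 8 were lower and none higher, beside 1.52% and 0.484% of all genes. The mannose receptor Mrc1 had 7.70, 7.90 and 7.04 against 4.61, 4.69 and 4.64, a fall of at least 2.32-fold (limma adjusted p = 2.3e-06). The endocytic adaptor Dab2 was 3.70-fold lower and Ms4a7 at least 2.89-fold. The scavenger receptor Cd36 showed a spread among the wild-type arrays, at 6.97, 6.32 and 5.63, above the 4.65, 4.78 and 5.01 of the empty vector arrays. Cd163, Lyve1 and Cbr2 differed by 0.16, -0.10 and 0.09, did not pass, and were below background in both groups.

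Promoters of these genes are shown because they fell together. Spi1 encodes an Ets factor whose core motif is GAGGAA. Of the 12 largest falls, 9 had a promoter in the RefSeq table (build GRCm38.p6), and 3 of the 9 held GAGGAA on either strand in the 100 bases before the start of transcription. The motif, in capitals below, reads TTCCTC where it lies on the opposite strand. The sequences run 5′ to 3′ on the gene's own strand, which is the plus strand in all 3 genes, and lie at chr17:75435805-75435904 for Rasgrp3, chr2:14229314-14229413 for Mrc1 and chr4:130913216-130913315 for Laptm5.
Rasgrp3: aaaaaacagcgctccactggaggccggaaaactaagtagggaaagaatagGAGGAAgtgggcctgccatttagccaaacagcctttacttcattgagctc
Mrc1: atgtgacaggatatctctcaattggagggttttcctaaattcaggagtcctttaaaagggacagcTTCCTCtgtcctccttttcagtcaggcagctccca
Laptm5: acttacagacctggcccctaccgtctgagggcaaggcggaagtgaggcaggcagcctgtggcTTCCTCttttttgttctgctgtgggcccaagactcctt

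The motif began 50, 35 and 38 bases before the start in Rasgrp3, Mrc1 and Laptm5. A second promoter of Rasgrp3 held no match, and the gene was counted by its first. Among all genes that were lower, 39 of 227 with a promoter held it (17.2%), among those that were higher 6 of 77 (7.79%), and among all measured genes with a promoter 1605 of 14450 (11.1%). The core of the interferon response element, GAAANNGAA, was present in 5.29% of the promoters of lower genes and 2.42% of all measured ones, and the AP-1 site TGACTCA in 3.96% and 2.05%. The E-box CACGTG was present in 4.85% and 4.86%. These shares describe letters in a window of fixed length, on both strands, and were not tested.

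Lysosomal and complement genes were lower as well: 12 of 22 measured members fell and none rose, beside 1.52% and 0.484% of all genes. The median was -0.58. Ctss, the cathepsin of antigen-presenting cells, had values of 12.03, 12.23 and 12.08 in wild-type and 9.88, 10.04 and 9.02 in empty vector arrays, a 5.53-fold fall (limma adjusted p = 2.0e-05). Ctsz was at least 2.39-fold and Ctsh at least 2.07-fold lower. Proteases found in most cell types fell less, by 1.79-fold for Ctsb and 1.42-fold for Ctsl, and Grn, the precursor of granulins, fell 1.58-fold from a wild-type mean of 12.77. The difference in size between these members was not tested. Of the complement genes, C1qb was at least 3.06-fold and C1qc at least 2.57-fold lower, whereas C1qa differed by -0.23 and did not pass. C3ar1, the receptor for the complement fragment C3a, was at least 1.83-fold lower, and a second probe set of it fell by 3.17 on the log2 scale.

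Of 19 measured genes of lipoprotein handling and phagocytic receptors, 9 were lower and none higher, beside 1.52% and 0.484% of all genes. The median was -0.41. Lpl, which releases fatty acids from lipoproteins, stood at 12.21, 12.21 and 11.85 in wild-type cultures and 9.82, 9.71 and 9.37 with the vector, 5.49-fold lower (limma adjusted p = 6.8e-07). A second probe set of Lpl fell by 0.71 on the log2 scale. The lipid droplet protein Plin2 was 2.69-fold lower. Lgals3, a lectin of activated macrophages, had 9.29, 9.41 and 9.44 against 6.94, 6.85 and 5.87, at least 6.26-fold lower, and the related activation genes Gpnmb and Clec7a were at least 3.71-fold and 3.76-fold lower. In each of these 5 genes the groups did not overlap, as in every called gene.

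**Figure D3:**
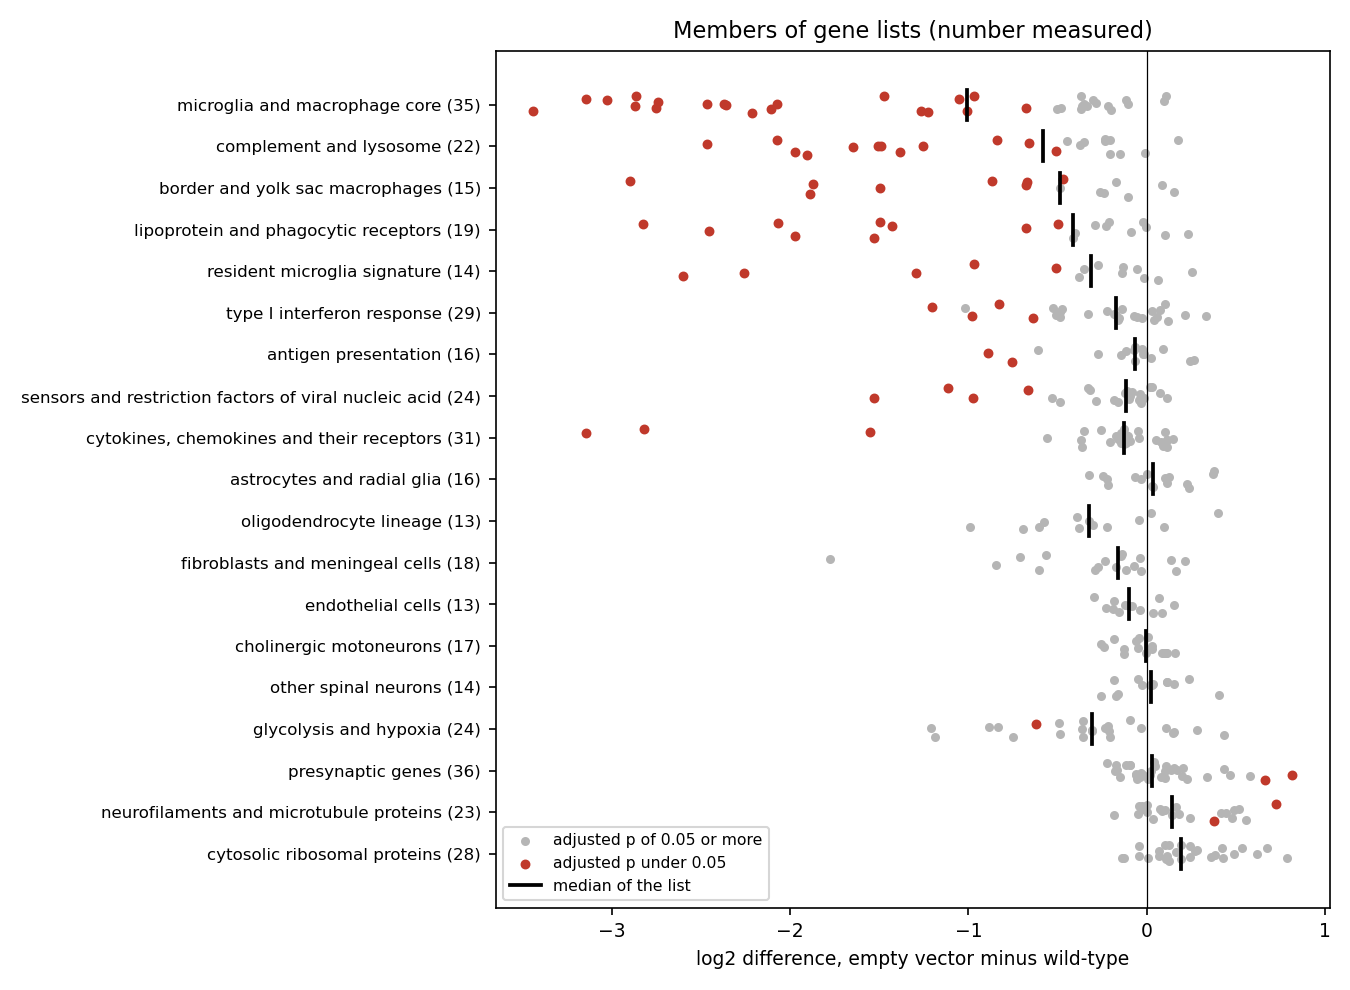
Log2 difference, empty vector minus wild-type, of every measured member of 19 gene lists (number measured in parentheses). Each point is a gene, red where its adjusted p was under 0.05, and the black bar is the median of the list, which lies at -1.01 for the macrophage core and between -0.32 and 0.19 in the lists of neural cells and of general functions.

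Beyond the lists, 208 of the 276 lower genes belonged to none of the 37 lists, and 54 of the 99 that were lower by at least 2-fold. The largest were Serpinb6b, a serine protease inhibitor, at 7.02, 7.24 and 6.66 against 3.83, 4.02 and 3.51, Rasgrp3, an activator of Ras proteins, Ms4a6d, and Atp6v0d2, a subunit of the proton pump that acidifies lysosomes. Rasgrp3 had the lowest adjusted p of all named genes, with 7.88, 8.11 and 7.80 in wild-type and 4.88, 4.88 and 4.91 in empty vector arrays, at least 3.04-fold lower (limma adjusted p = 2.4e-08). Ms4a6d was at least 7.20-fold lower, and 1 of its 2 further probe sets fell by 2.55 on the log2 scale. Some others were chosen after their values were seen. The iron exporter Slc40a1 was 4.16-fold lower, Pik3ap1, an adaptor of immune receptors, 5.07-fold, and Anxa1, an anti-inflammatory annexin, 3.23-fold. The inflammasome adaptor Pycard was at least 1.56-fold lower, and the lysosomal enzyme Gusb at least 2.83-fold.

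Of 31 measured genes of cytokines, chemokines and their receptors, 3 (9.68%) were lower and none higher, beside 1.52% and 0.484% of all genes. The chemokine Ccl9 had 8.47, 8.64 and 7.62 against 5.45, 4.75 and 5.09, at least 3.77-fold lower. A second probe set of Ccl9, not above background, differed by -0.25. Ccl6, a related chemokine, was near background on wild-type replicate 3, at 7.98, 7.95 and 6.04 against 4.59, 4.28 and 4.63, and fell by 2.82. Tgfbr2, a receptor of TGF-beta, was at least 2.55-fold lower. Ccl3 and Ccl4, chemokines of inflammation, differed by -0.56 and -0.36 and did not pass.

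No gene of the response to virus was called higher. Of 29 measured genes of the type I interferon response, 4 were lower in the empty vector cultures than without virus and none was higher. Over all genes 1.52% were lower and 0.484% higher. The median of the list was -0.17. Only 6 of the 29 were above background in either group. Rsad2, an antiviral enzyme, had 7.90, 7.96 and 8.45 against 7.36, 7.07 and 7.38, a 1.78-fold fall, and Oas1a, which makes a second messenger on contact with double-stranded RNA, was 1.55-fold lower. Ifit1 and Ifi35, below background in both groups, fell by 0.98 and 1.21 on the log2 scale. A further probe set of Ifi35 differed by 0.03. Rsad2 lost its call without empty vector replicate 1 or 2. Without wild-type replicate 3, 7 of the 29 were lower, beside 797 of all 18191 genes in that fit.

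The list of sensors and restriction factors of viral nucleic acid gave a similar picture, with 4 of 24 members (16.7%) lower and none higher. Over all genes the shares were 1.52% and 0.484%. Ifih1, a RIG-I-like receptor known as MDA5, fell by 0.98 and the endosomal RNA receptor Tlr7 by 0.67, both below background in both groups. Zc3hav1, which binds viral RNA and marks it for decay, had 8.25, 8.41 and 8.24 against 7.11, 7.67 and 6.77, a 2.17-fold fall (limma adjusted p = 0.0048). Tnfaip3, which restrains NF-kappaB signalling, was 2.89-fold lower. In antigen presentation, 2 of 16 genes were lower: B2m, the light chain of class I molecules, by 1.85-fold, and the immunoproteasome subunit Psmb8 by at least 1.27-fold. Psmb8 lost its call without wild-type or empty vector replicate 1, Ifih1 without wild-type replicate 2 or empty vector replicate 1 or 3, and Tlr7 without wild-type replicate 1 or 2 or empty vector replicate 1 or 2.

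The Smn knockdown cultures, which carried a lentivirus too, are set beside these values. The titles of the knockdown arrays follow another numbering than those of the wild-type and empty vector arrays. What the numbering stands for is not stated, and any difference that goes with it cannot be told apart from the knockdown. Both comparisons against wild-type share the same wild-type arrays. The mean over the 35 macrophage core genes was 7.53, 7.36 and 7.59 in the knockdown arrays, above all wild-type arrays and all empty vector arrays. Csf1r stood at 10.23, 9.82 and 10.10 there, Ptprc at 9.87, 9.65 and 10.04, and Laptm5 at 11.41, 11.20 and 11.41. Some of the falls were met by low values in the knockdown group too: Mrc1 was 5.67, 5.67 and 5.99 and Ccl9 6.54, 6.19 and 6.69, between the levels of the other groups. Averaged over the 29 interferon genes, wild-type arrays lay at 5.76 to 5.83, empty vector arrays at 5.48 to 5.56 and knockdown arrays at 8.54 to 8.83. In knockdown against wild-type cultures 27 of the 29 were higher, beside 15.6% of all genes that were higher and 20.4% that were lower. The single genes differed widely, with Ifit1 at 11.74, 11.79 and 12.07 and Rsad2 at 12.94, 12.83 and 13.29 in the knockdown arrays.

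**Figure D4:**
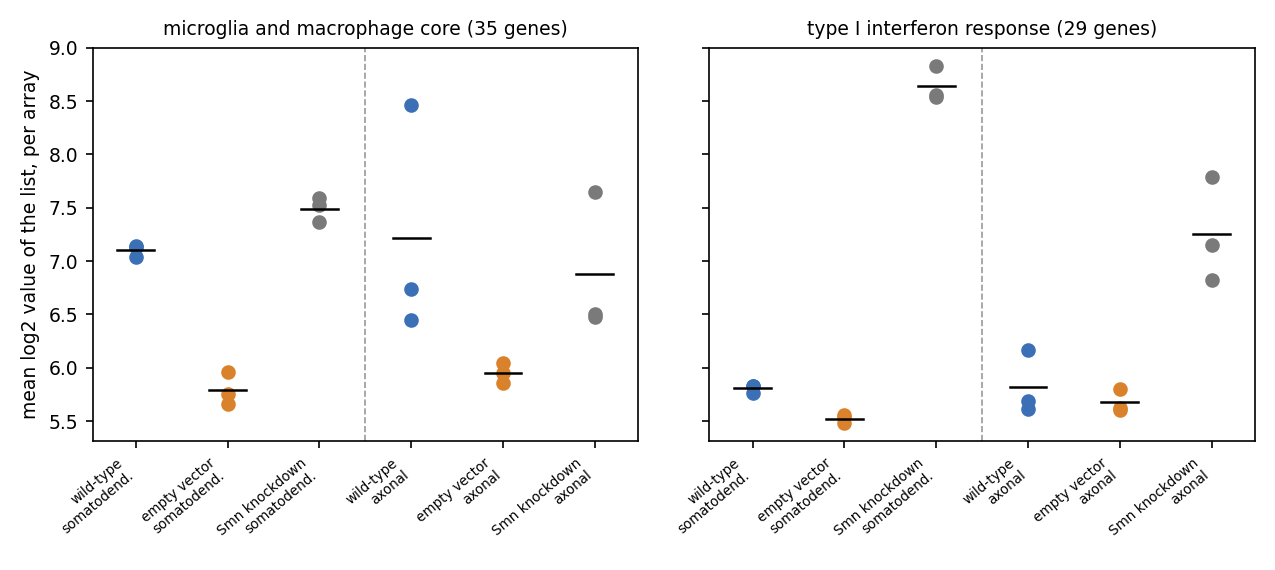
Mean log2 value over the 35 macrophage core genes (left) and the 29 interferon response genes (right) on each array, with black bars for group means. The compartments, divided by a dashed line, were normalised apart, and within each of them the empty vector arrays have the lowest group mean in both lists. For the interferon list the axonal groups overlap, with 6.17, 5.68 and 5.61 in wild-type and 5.60, 5.62 and 5.80 in empty vector arrays.

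The rises were smaller and of another kind. Fos, an immediate early transcription factor that neurons switch on with activity and stress, rose most, from 10.11, 9.43 and 9.98 in wild-type to 10.61, 11.75 and 11.28 in empty vector arrays, 2.59-fold (SE 0.24 on the log2 scale, limma adjusted p = 0.011). Without wild-type replicate 2 its adjusted p was 0.054. The knockdown arrays, at 10.04, 10.01 and 9.76, lay within the wild-type range. Fos was the 1 of 16 immediate early genes that passed, beside 0.484% of all genes that were higher and 1.52% that were lower. Dusp1 and Jun, which often respond with it, differed by 0.42 and 0.33, and Ier3 by -0.33.

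The other 11 of the 12 largest rises were genes of housekeeping and of neurons, between 0.73 and 1.04 on the log2 scale. Clip3, a microtubule-linked protein of membrane trafficking, had 7.09, 6.77 and 7.73 against 8.20, 8.37 and 8.13, 2.05-fold higher. A second probe set of Clip3, above background in both groups, differed by 0.24 and did not pass. Next came Mrpl24, a protein of the mitochondrial ribosome, Gon4l, Arpc1a, a subunit of the actin-branching complex, and Eif2b1, a subunit of a translation initiation factor, at 1.81-fold, 1.79-fold, 1.77-fold and 1.77-fold. The splicing factor Prpf8 rose 1.74-fold and the ATPase Vcp 1.69-fold. In these genes wild-type replicate 3 was the wild-type array closest to the empty vector arrays, as it was in 67 of the 88 higher genes and 163 of the 276 lower ones. These rises also depended on the arrays used: 2 of the 12 largest passed without wild-type replicate 1, 3 without wild-type replicate 2 or empty vector replicate 1 or 2, and 5 without empty vector replicate 3. The knockdown mean lay above the empty vector mean in all 11, with Clip3 at 9.39, 9.50 and 9.14.

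**Figure D5:**
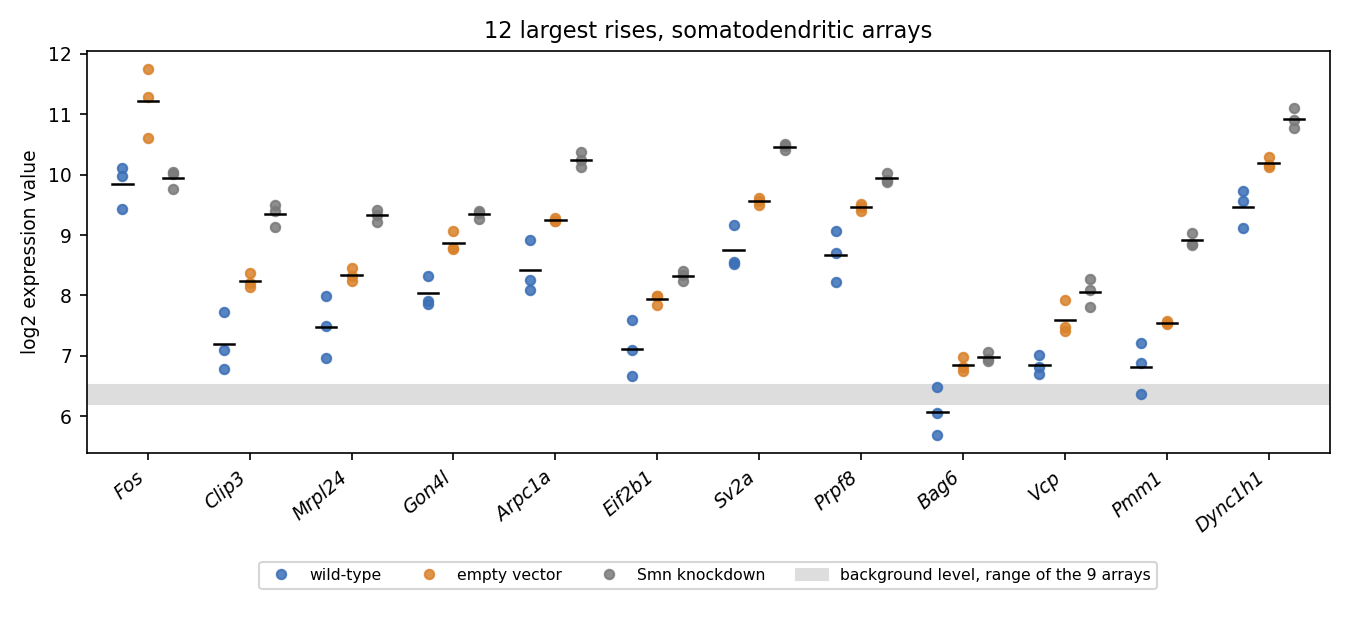
Log2 expression values of the 12 genes with the largest rises on the 9 somatodendritic arrays. Points are arrays (3 per group, coloured by group), black bars group means, and the grey band the range of the background level, and in Fos alone the knockdown mean lies below the empty vector mean.

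Synaptic genes rose in few cases. Of 36 presynaptic genes 2 were higher and none lower, beside 0.484% and 1.52% of all genes, with a median of 0.03. Sv2a, a glycoprotein of synaptic vesicles, had 8.55, 8.52 and 9.17 against 9.62, 9.57 and 9.50, 1.76-fold higher, and the vesicle protein Syp had 7.70, 7.66 and 7.96 against 8.32, 8.36 and 8.63, 1.58-fold higher. Sv2a lost its call without wild-type replicate 1 or 2 or empty vector replicate 1 (highest limma adjusted p = 0.060). Syp lost it without any single array other than wild-type replicate 3 (highest 0.17), and with the mean of all probe sets. Syn1, which tethers vesicles, differed by 0.58 with an adjusted p of 0.065 by limma. Of 26 postsynaptic genes, the GABA receptor subunit Gabra3 rose 1.38-fold. Among 23 genes of neurofilaments and microtubules, Dync1h1, the heavy chain of the dynein motor, rose 1.65-fold and the neurofilament gene Ina 1.30-fold, and 1 of 2 further probe sets of Ina rose by 0.63. Of 51 genes of axon growth and guidance, the semaphorin receptors Plxna1 and Plxna3 rose, both by 1.34-fold. These calls were also lost without single arrays: Dync1h1, Ina and Plxna3 without each array but wild-type replicate 3, Gabra3 without wild-type replicate 2 or any empty vector array, and Plxna1 without wild-type replicate 1 or 2 or empty vector replicate 1 or 2.

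General growth and metabolism moved little. The calls below stand beside 0.484% of all genes that were higher and 1.52% that were lower. None of 39 genes of oxidative phosphorylation and none of 28 cytosolic ribosomal proteins passed, with medians of 0.09 and 0.19. Without wild-type replicate 3, 5 and 9 of them were higher, beside 611 of all 18191 genes in that fit. The sterol desaturase Sc5d, 1 of 17 genes of cholesterol synthesis, rose 1.57-fold, and a second probe set of it, above background, differed by -0.06. Prmt5, which methylates the Sm proteins that the SMN complex loads onto RNA, rose 1.46-fold and was the 1 of 16 genes of snRNP assembly that passed. None of 31 cell cycle genes and none of 22 genes of the unfolded protein response passed, and Sesn1 was the 1 of 22 genes of the p53 pathway that did, 1.34-fold lower. Sc5d and Sesn1 lost their call without each array but wild-type replicate 3, and Prmt5 without wild-type replicate 1 or 2 or empty vector replicate 1 or 3. None of 18 genes of nerve injury, 27 of the extracellular matrix and 4 sex-linked genes passed.

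Genes induced by low oxygen separated the wild-type arrays from each other. Vegfa, a growth factor for vessels, had 8.87 and 9.38 on wild-type replicates 1 and 2 and 7.33 on replicate 3, and 7.33, 7.36 and 7.26 on the empty vector arrays. Adm, adrenomedullin, had 8.70, 8.55 and 6.75 against 6.52, 7.13 and 6.81, and the mitochondrial protein Bnip3 13.04, 12.90 and 11.82 against 11.85, 11.63 and 11.78. Wild-type replicate 3 thus lay with the empty vector arrays in all 3 genes. Over the 24 measured genes of glycolysis and hypoxia, 1 was lower in the comparison, beside 1.52% of all genes. It was the hexokinase gene Hk2, with a difference of -0.62. This call was lost without wild-type replicate 1 or 2 or empty vector replicate 1 or 3. Without wild-type replicate 3, 13 of the 24 were lower, beside 797 of all 18191 genes in that fit. Among the 13 was Vegfa at -1.81 (limma adjusted p = 1.7e-05). The mean over the list was 9.49 and 9.36 on wild-type replicates 1 and 2, 8.92 on replicate 3 and 8.88 to 8.94 on the empty vector arrays. The part of these genes in the other results was not tested. The macrophage core list, with 20 lower genes, had 21 without that array.

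Genes of other cells that the cultures could hold gave few calls. None of 16 genes of astrocytes and radial glia, 12 of neural progenitors, 13 of the oligodendrocyte lineage, 18 of fibroblasts and meninges, 15 of smooth muscle and pericytes, 13 of endothelium, 6 of erythroid cells and 8 of sensory neurons passed. Without wild-type replicate 3, 3 oligodendrocyte, 3 fibroblast and 1 smooth muscle gene were lower and 2 astrocyte genes higher. In that fit 797 of all 18191 genes were lower and 611 higher. Astrocyte genes were detected at like levels, 14 of 16 above background in both groups, and the fatty acid binding protein Fabp7 of radial glia had means of 13.37 and 13.75. The oligodendrocyte list had a median of -0.32, and Bcas1, a gene of maturing oligodendrocytes, showed 11.37, 11.36 and 9.89 in wild-type against 9.70, 9.80 and 10.15 in empty vector arrays, so that wild-type replicate 3 overlapped the empty vector range. The collagen gene Col3a1 spread from 5.85 to 9.97 in wild-type and from 5.31 to 7.60 in empty vector arrays, a difference of -1.77 that did not pass. Pmp22, a myelin gene also active in other cells, fell 1.67-fold and was the 1 of 9 Schwann and neural crest genes that passed. In the comparison of all arrays, 1.52% of all genes were lower and 0.484% higher. No erythroid gene was above background.

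Of 20 genes of neurotrophic factor signalling, Igf1 was lower, beside 1.52% of all genes. This growth factor, made by microglia and by other cells, had 10.68, 10.81 and 10.66 in wild-type against 10.36, 9.71 and 10.00 in empty vector arrays, a 1.62-fold fall (limma adjusted p = 0.022), and its 3 further probe sets fell by 0.77, 1.16 and 1.65. The call was lost without wild-type replicate 1 or 2 or empty vector replicate 2 or 3 (highest limma adjusted p = 0.097), and with the replicate block (0.11). In the knockdown arrays it stood lower still, at 8.61, 8.48 and 8.67. The receptors Ret and Met differed by -0.24 and -0.34 and did not pass.

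The same contrast was made in RNA of the axonal compartment, in 6 arrays that the somatodendritic comparison did not use. No gene passed there (0 of 18191 by limma), and 603 genes (3.31%) had an unadjusted p under 0.05. The axonal arrays varied widely within groups: the median standard error of a difference was 0.43 there and 0.10 in the somatodendritic fit. The axonal test made no calls on simulated shifts of 0.5, 1 and 2 on the log2 scale either, and larger shifts were not simulated. Its lack of calls therefore does not show that the vector had no effect in axons. The mean over the 35 macrophage core genes was 8.46, 6.74 and 6.45 in the axonal wild-type and 5.86, 6.04 and 5.95 in the axonal empty vector arrays, so the ranges did not overlap, with wild-type replicate 1 far above the others. Csf1r had 13.25, 7.84 and 11.32 against 5.73, 6.74 and 6.36, and Laptm5 13.01, 8.70 and 10.42 against 6.17, 7.43 and 6.11. In both genes all axonal wild-type arrays lay above all axonal empty vector arrays, as in 10 of the 35 core genes and in 4.54% of all genes, beside 4.29% in which they lay below. Ptprc had 10.63, 8.19 and 3.58 against 3.87, 5.25 and 4.18, which overlap.

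A test of whether the difference itself changed between the compartments, over all 18 arrays, found 5 genes of 18191 (0.0275%), and 784 (4.31%) had an unadjusted p under 0.05. None of the macrophage core genes was among the 5. The test includes the widely varying axonal arrays and was not checked on simulated shifts. It therefore does not show that the macrophage difference was alike in both compartments. All 5 genes had small somatodendritic differences, between -0.40 and 0.38. Their axonal differences were at least 2.40 in size, and none passed in the axonal comparison alone. Levels of the compartments were normalised apart, so each difference was formed within its compartment.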

How the data were processed

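The deposited log2 expression values were used as the authors gave them. Which software produced them: not given in the sources used here. After sorting, axonal arrays lay within 0.0125 of each other and somatodendritic ones within 0.0048, against up to 0.93 between the compartments' means, so each compartment has a distribution of its own. Of 45101 probe sets, 34958 named 1 gene in the platform annotation, 932 several and 9211 none. Control probe sets (64) and probe sets lacking a value (11) were left out, and no filter on dim genes was applied. The tests were limma's (version 3.58.1, under R 4.3.3, with lmFit, eBayes and Benjamini-Hochberg adjustment over all genes, threshold 0.05) on the 9 arrays of a compartment, and checked on simulated data. SE is limma's standard error. The number of arrays, 3 per group, limits the precision. Named genes are the 12 largest rises and falls that passed without overlap and above background in a group, up to 5 members of each list with the lowest p, further list members chosen after their values were seen, Smn1, and those of the test between compartments. The members and the 37 lists were chosen with earlier results of these data known, so the lists are no independent support. Promoters are RefSeq's, build GRCm38.p6. Alternatives covered the arrays fitted, probe sets, filter, scaling, eBayes settings, the replicate block and leaving out each array.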

Additional observations from a re-analysis of the deposited data

Results flagged for a closer look

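For 5 genes the effect of the vector differed between the compartments by the test of that difference itself (limma on 18 arrays). Each value is the somatodendritic minus the axonal difference on the log2 scale. It was -4.42 (SE 0.52, limma adjusted p = 0.0095) for Vps13a, a lipid transfer protein, whose axonal values were 3.93, 4.19 and 4.71 in wild-type and 7.49, 9.21 and 8.18 in empty vector arrays. Ttc30a1, a gene of intraflagellar transport, gave 2.76 (SE 0.34), with axonal values of 7.20, 6.99 and 6.78 against 4.24, 4.17 and 4.06. The value was -2.58 for Nr1d2, a repressor of the circadian clock, 3.06 for Ccdc30 and 2.60 for the mitochondrial transfer RNA modifier Mto1. In all 5 the axonal groups did not overlap, and the somatodendritic differences lay between -0.40 and 0.38. With the replicate number as a block, none of the 5 passed.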

How the results depend on the processing

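Of the 35 macrophage core genes, 17 to 23 were lower under every alternative but the joint fit of 18 arrays, where 1 was. The fit on genes above background tested 19 of the 35 and found 17 lower. The 12 largest falls kept their call under every alternative but 2: 10 did without probe sets that may read several genes, and 2 in the joint fit. Fitted on all 18 arrays, 7 genes were called, 0 higher and 7 lower, against 364. The 6 wild-type and empty vector arrays alone gave 209 calls, 17 of them higher. The replicate block, a fit with the array number of the titles as a term, gave 164 calls, 8 higher and 156 lower, and 1 of the 12 largest rises kept its call. Same-numbered somatodendritic arrays correlated at 0.23, 0.00 and -0.17 in their deviations from the group means, and differently numbered ones at -0.21 to 0.20. With 3 arrays per group, these values cannot show whether the numbers pair the arrays. Leaving out 1 array at a time gave 200 to 1408 calls, 16 to 611 higher and 179 to 797 lower, the upper end without wild-type replicate 3. The rises depend most on single arrays: without wild-type replicate 1, 2 of the 12 largest passed. Without probe sets that may read several genes, another probe set gave 0.085 for Ptprc, 0.20 for Laptm5 and 0.028 for Ifi35, reversing the sign. The axonal comparison had 0 calls under every alternative, which is no sign of stability, since that test also found none of the simulated shifts. The difference between compartments had 5 calls, 1 with the mean of all probe sets, 0 with the replicate block over 12 arrays and 3 to 27 without 1 array. The causes were not tested. Signal over background limits the rest: 44.2% of genes were above background in neither group, and their falls have no fold.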
